A study of Mus musculus with 18 samples.

Results

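MCA205 cells labelled sgNAT10 were compared with wild-type MCA205 cells, both untreated and grown in culture, by RNA sequencing of total RNA in 3 libraries of each genotype out of the 18 libraries of the series. MCA205 is a line from a mouse fibrosarcoma that was induced with methylcholanthrene, and sgNAT10 marks cells that received a single guide RNA against Nat10. NAT10 is the acetyltransferase that places N4-acetylcytidine on RNA. The labels do not name the guide, and they do not say if the sgNAT10 cells are 1 clone or a pool, or if the libraries of a genotype come from separate cultures, so p-values reflect only how libraries vary, which can be technical variation. The members were the libraries whose columns carry the MCA205 wild-type and sgNAT10 names, 6 in all, and their transcript rows were summed to 30365 genes. Libraries of TC1 cells, wild type and sgNAT10 with 3 of each, served as the second line. The labels call TC1 a fibrosarcoma line too. Genes of the interferon response, the G2/M phase and cholesterol synthesis were set aside, so that secreted factors, transcription factors, receptors and metabolic enzymes could be described, along with transcripts that moved against their own gene.

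Fibrosarcoma cells are mesenchymal. They secrete collagens, proteoglycans, proteases and cytokines, and they read growth factors and matrix through receptor tyrosine kinases, cytokine receptors and integrins. Transcription factors of the AP-1, SOX, HOX and forkhead families set much of that output, while enzymes of arginine, eicosanoid, retinoid and lipid metabolism make small molecules that leave the cell. The 6 libraries carried the mesenchymal markers Vim at 448, 431 and 447 FPKM in wild type and 522, 536 and 523 FPKM in sgNAT10, and Sparc at 234, 243 and 244 against 248, 237 and 241 FPKM, where FPKM stands for fragments per kilobase of transcript scaled to library depth. Col1a1 was at 0.193, 3.97 and 2.45 against 2.15, 0.101 and 2.36 FPKM, and Thy1 did not reach 1 FPKM in any of the 6 libraries.

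The libraries held between 52430163 and 77792641 estimated counts, and the 10 most abundant genes took 4.70% to 4.94% of a library. Transcripts of other tissues were present in 4 of the 6 libraries. The mean level of 18 hepatocyte and 16 intestinal genes together was 18.7 FPKM in wild type 2, 7.45 FPKM in wild type 3, 6.21 FPKM in sgNAT10 1 and 7.003 FPKM in sgNAT10 3, against 0.338 FPKM in wild type 1 and 0.289 FPKM in sgNAT10 2. Of the 18 hepatocyte genes, 11 to 13 reached 1 FPKM in the 4 libraries with more of these transcripts and 0 did in the other two. Alb, the serum albumin gene, was at 0, 2.17 and 2.50 FPKM in wild type and 1.99, 0.0282 and 2.73 FPKM in sgNAT10. Epithelial genes followed the same division, from 4.47 to 15.1 FPKM in those 4 libraries against 0.312 FPKM in wild type 1 and 0.141 FPKM in sgNAT10 2. Wild type 2 also held heart and skeletal muscle genes at 13.5 FPKM, where the other libraries had 0.470 to 2.40 FPKM. Each genotype has 1 library low in hepatocyte, intestinal and epithelial transcripts, and counts of members called are given below without that pair too where they differ by more than 1.5 times.

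**Figure D1:**
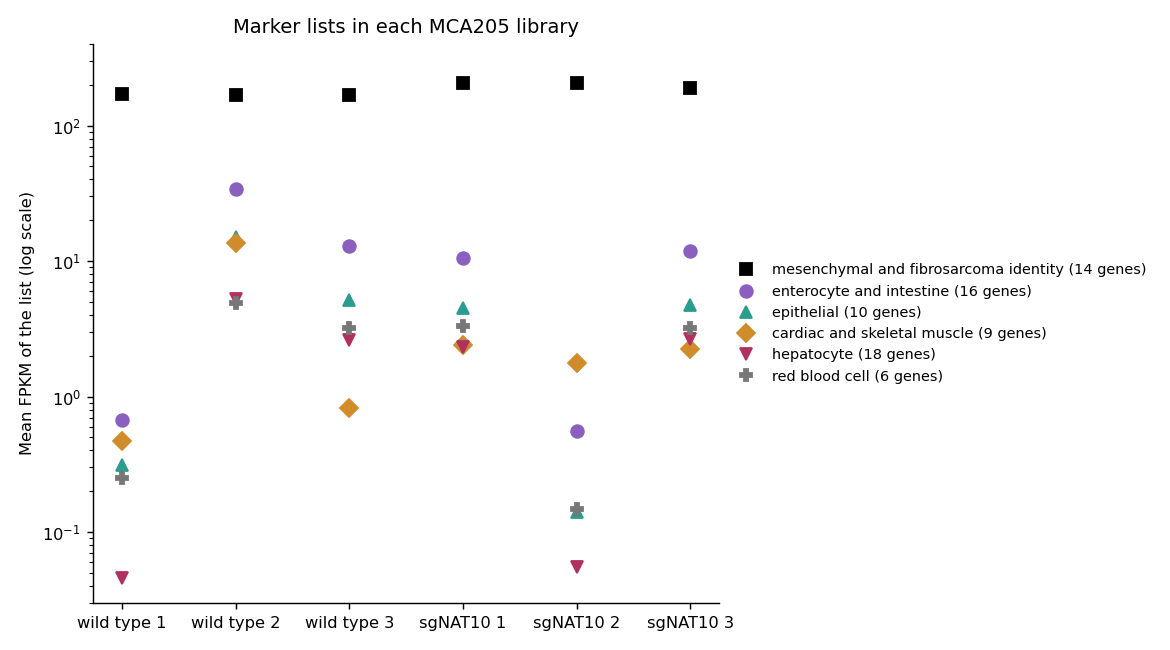
Mean FPKM of 6 marker lists (log axis) in each of the 6 MCA205 libraries, 1 symbol per list and library. The mesenchymal list lies between 169 and 206 FPKM throughout, while the intestinal, epithelial, hepatocyte and red blood cell lists are low in wild type 1 and sgNAT10 2.

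Of 18101 genes tested with edgeR, 3841 rose in sgNAT10 cells (21.2%) and 3514 fell (19.4%), at a Benjamini-Hochberg adjusted p under 0.05. At least 2-fold changes were fewer, with 1170 genes higher (6.46%) and 619 lower (3.42%). Without wild type 1 and sgNAT10 2 the counts were 3470 higher and 2932 lower. The gene named by the guide, Nat10, was at 14.2, 12.5 and 13.8 FPKM in wild type and 13.2, 13.6 and 13.6 FPKM in sgNAT10 and was not called (log2 difference 0.00, SE 0.06, adjusted p = 0.984), and a guide's small insertions or deletions need not lower a transcript, so this level does not check the labels. The series title also names Myc, Cdk2 and Dnmt1, which fell from 90.6 ± 8.69 to 58.99 ± 5.58 FPKM, from 64.6 ± 9.16 to 18.1 ± 1.07 FPKM and from 114 ± 9.40 to 48.6 ± 2.52 FPKM. The lists used here hold 1339 genes in 35 groups, of which 1175 were tested, and 334 of those rose and 298 fell. Secreted factors had 86 of 277 tested members higher and 48 lower, receptors 76 of 224 higher and 43 lower, and transcription factors 79 of 269 higher and 62 lower. Metabolic genes stood the other way round, with 93 of 405 tested members higher and 145 lower. Their median log2 difference was -0.14, against -0.03 over all genes tested and 0.05 over secreted factors. Groups did not overlap in FPKM for 52.6% of all genes tested. The genes below given with values under the fixed rule for changes were chosen among called genes whose groups do not overlap. Their separation was fixed by that choice and is not a result. Called members named without values did not have to meet that condition.

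**Figure D2:**
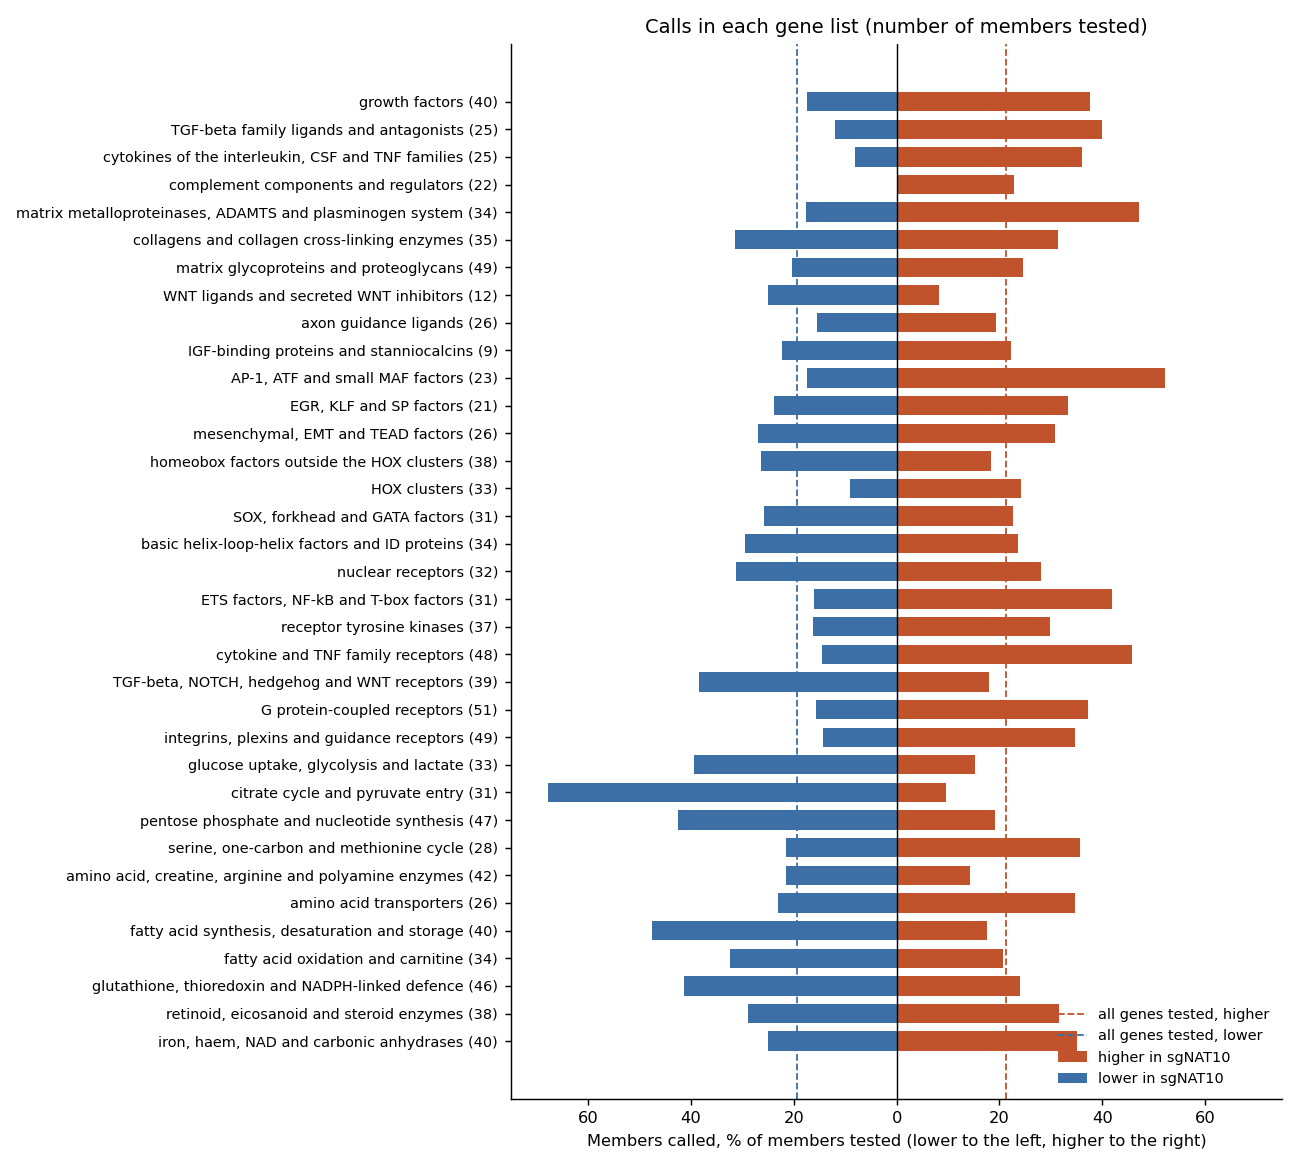
Share of tested members called higher (right) or lower (left) in sgNAT10 MCA205 cells for each of 35 gene lists, in percent, with the number of members tested in brackets and dashed lines at the shares over all genes tested. The citrate cycle bar reaches furthest to the left at 67.7%, and the AP-1 bar furthest to the right at 52.2%.

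Cytokine genes rose more often than they fell. In the list of interleukins, colony-stimulating factors and tumour necrosis factor relatives, 9 of 25 tested members rose (36.0%) and 2 fell (8.00%), with a median log2 difference of 0.84 against -0.03 over all genes. Without wild type 1 and sgNAT10 2 the falls numbered 1. Csf3, the granulocyte colony-stimulating factor that drives neutrophil production, was at 1.01, 0.979 and 0.986 FPKM in wild type and 15.6, 16.8 and 17.2 FPKM in sgNAT10 (log2 difference 4.06, SE 0.08, adjusted p = 4.85e-07). Il33, an alarmin of the interleukin-1 family, was at 0.468, 1.89 and 0.605 against 13.7, 16.4 and 17.1 FPKM (log2 difference 3.98, SE 0.50, adjusted p = 0.000874). Both rose, and wild type 2 was the highest wild-type library for Il33. Il15, which sustains natural killer and memory T cells, went from 0.465 ± 0.160 to 2.86 ± 0.257 FPKM (log2 difference 2.36, SE 0.46, adjusted p = 0.00621). The falls were Il1a, from 5.69 ± 0.329 to 2.57 ± 0.198 FPKM (log2 difference -1.14, SE 0.10, adjusted p = 0.000212), and the macrophage growth factor Csf1, from 102 ± 3.30 to 91.5 ± 2.48 FPKM (log2 difference -0.11, SE 0.03, adjusted p = 0.0305), the most abundant cytokine of the list. The Csf1 call was lost on leaving out any 1 of the wild-type libraries (adjusted p from 0.0518 to 0.0677), with log2 differences from -0.12 to -0.10, and without wild type 1 and sgNAT10 2 (adjusted p = 0.148).

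Among growth factors 15 of 40 tested members rose (37.5%) and 7 fell (17.5%). Btc, a ligand of the epidermal growth factor receptor, was at 0.0646, 0.275 and 0.113 FPKM in wild type and 3.54, 3.08 and 3.45 FPKM in sgNAT10 (log2 difference 4.27, SE 0.41, adjusted p = 0.00026), and Areg, another ligand of that receptor, went from 0.788 ± 0.219 to 3.27 ± 0.756 FPKM (log2 difference 2.05, SE 0.29, adjusted p = 0.00142). The matricellular CCN family divided. Ccn1, an immediate early target of growth signals and the most abundant member of the list, was at 382, 387 and 415 against 199, 206 and 205 FPKM (log2 difference -0.95, SE 0.04, adjusted p = 1.06e-05). Ccn5 fell from 2.03 ± 0.511 to 0.409 ± 0.128 FPKM (log2 difference -2.44, SE 0.27, adjusted p = 0.000504), while Ccn3 rose from 0.463 ± 0.299 to 3.09 ± 0.241 FPKM (log2 difference 2.74, SE 0.43, adjusted p = 0.00226). Of these 3 family members Ccn3 alone rose. Fgf21, an endocrine member of the fibroblast growth factor family, fell from 15.1 ± 3.05 to 6.66 ± 0.745 FPKM (log2 difference -1.17, SE 0.17, adjusted p = 0.00172). Vegfc, Hgf, Kitl and Gdnf were also among the rises, and Ereg, Nrg1 and Pdgfb among the falls. Vegfa was called lower by a small amount (log2 difference -0.18, adjusted p = 0.00279). Its mean level was 82.7 FPKM in wild type and 80.6 FPKM in sgNAT10.

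Extracellular proteases and their inhibitors formed the secreted list with the largest share of rises. Of metalloproteinases, ADAMTS proteases and the plasminogen system, 16 of 34 tested members rose (47.1%) and 6 fell (17.6%), and 10 of the rises were at least 2-fold. Serpinb2, the plasminogen activator inhibitor also called PAI-2, was at 0.110, 0.201 and 0.159 FPKM in wild type and 10.3, 11.7 and 11.04 FPKM in sgNAT10 (log2 difference 6.08, SE 0.21, adjusted p = 3.2e-06). The gelatinase gene Mmp9 was at 2.66, 2.63 and 2.16 against 11.6, 12.3 and 11.1 FPKM (log2 difference 2.24, SE 0.09, adjusted p = 7.65e-06), and Serpinf1, the anti-angiogenic pigment epithelium-derived factor, at 30.5, 33.7 and 35.7 against 151, 164 and 164 FPKM (log2 difference 2.18, SE 0.05, adjusted p = 6.61e-07). For these 3 genes the lowest sgNAT10 library was more than 4 times the highest wild-type library. Mmp2, Mmp3, Mmp10, Mmp14, Timp1, Timp2, Plat and the urokinase receptor gene Plaur rose as well. Urokinase itself, Plau, fell from 5.74 ± 0.423 to 2.43 ± 0.263 FPKM (log2 difference -1.23, SE 0.12, adjusted p = 0.000283), and so did Adamts1, whose product cleaves versican, from 28.5 ± 1.36 to 15.1 ± 0.978 FPKM, and its relative Adamts10, from 6.41 ± 0.398 to 2.98 ± 0.421 FPKM. Htra1, a serine protease and the most abundant member of this list, rose by less, from 171 ± 7.09 to 202 ± 1.65 FPKM (log2 difference 0.23, SE 0.04, adjusted p = 0.00265).

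Of matrix glycoprotein and proteoglycan genes 12 of 49 tested members rose (24.5%) and 10 fell (20.4%), near the 21.2% and 19.4% over all genes. Dcn, which encodes the collagen-coating proteoglycan decorin, was at 10.97, 17.8 and 13.8 FPKM in wild type and 191, 199 and 195 FPKM in sgNAT10 (log2 difference 3.79, SE 0.16, adjusted p = 7.73e-06). Tgfbi, an adhesive matrix protein named for its induction by transforming growth factor beta, was at 9.02, 9.69 and 9.43 against 53.9, 56.1 and 55.1 FPKM (log2 difference 2.56, SE 0.03, adjusted p = 2.14e-07). The large proteoglycan gene Vcan stood at 4.49, 4.73 and 4.76 against 21.1, 23.3 and 22.2 FPKM (log2 difference 2.45, SE 0.04, adjusted p = 3.67e-07). All 3 rose, and so did the hyaluronan synthase gene Has2, the elastic fibre gene Fbln5 and Thbs1. Mgp, an inhibitor of calcification, was at 133, 142 and 143 FPKM in wild type and 1.80, 0.240 and 5.36 FPKM in sgNAT10 (log2 difference -5.87, SE 0.73, adjusted p = 0.000832). The elastic fibre gene Fbln1 was at 14.9, 14.5 and 13.6 against 0.384, 0 and 0.401 FPKM (log2 difference -5.54, SE 0.89, adjusted p = 0.00253), and the small proteoglycan gene Ogn at 19.4, 19.2 and 22.3 against 0.703, 0.657 and 1.52 FPKM (log2 difference -4.41, SE 0.32, adjusted p = 7.94e-05). The remaining level of Mgp and Fbln1 in sgNAT10 cells was lowest in sgNAT10 2, the library low in other tissues' transcripts, in which Fbln1 was listed at 0. The part of those transcripts in the remaining level was not tested. Spp1, the most abundant matrix gene of the list, was at 1060.2, 997 and 1052 against 1035, 1081 and 1077 FPKM and was not called (log2 difference 0.04, SE 0.05, adjusted p = 0.536).

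Collagens and their modifying enzymes split evenly: 11 of 35 tested members rose (31.4%) and 11 fell (31.4%). The fibrillar collagen gene Col5a2 was at 18.9, 18.2 and 17.7 FPKM in wild type and 2.71, 2.56 and 3.08 FPKM in sgNAT10 (log2 difference -2.72, SE 0.07, adjusted p = 1e-06), and Col1a2 at 28.3, 30.3 and 27.7 against 2.21, 0.131 and 2.45 FPKM (log2 difference -4.42, SE 0.74, adjusted p = 0.00304). Col1a2 was almost without transcript in sgNAT10 2, and its 2 sister libraries kept a few FPKM, as they did for Mgp. Col3a1, Col5a1 and Col11a1 fell too. Among the rises were microfibrillar and basement membrane collagens, with Col6a3 at 0.849, 1.21 and 0.881 against 5.55, 5.97 and 6.25 FPKM (log2 difference 2.63, SE 0.11, adjusted p = 8.65e-06), Col4a2 going from 31.9 ± 0.697 to 53.7 ± 0.569 FPKM, and Col6a1, Col6a2, Col4a1, Col12a1 and Col18a1 also higher. Col4a5, another basement membrane collagen gene, fell from 14.1 ± 1.199 to 9.44 ± 0.264 FPKM (log2 difference -0.50, SE 0.05, adjusted p = 0.00031). The lysyl hydroxylase gene Plod3 rose from 60.9 ± 1.88 to 97.1 ± 0.711 FPKM (log2 difference 0.69, SE 0.04, adjusted p = 2.53e-05). Serpinh1, the collagen chaperone and the most abundant member, stayed at 509, 506 and 523 against 502, 507 and 489.6 FPKM with no call (log2 difference -0.02, SE 0.04, adjusted p = 0.792).

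Ligands and antagonists of transforming growth factor beta and bone morphogenetic proteins were more often higher than lower. Grem1, a secreted antagonist of bone morphogenetic proteins, was at 51.9, 46.0 and 43.8 FPKM in wild type and 140.3, 147 and 144 FPKM in sgNAT10 (log2 difference 1.61, SE 0.07, adjusted p = 7.65e-06). The latent-complex genes divided, with Ltbp2 going from 8.83 ± 0.295 to 19.7 ± 0.179 FPKM and Ltbp4 from 31.2 ± 0.801 to 56.5 ± 0.455 FPKM, while Ltbp3 went from 75.7 ± 3.56 to 41.5 ± 1.48 FPKM (log2 difference -0.86, SE 0.03, adjusted p = 6.98e-06). In that list 10 of 25 tested members rose (40.0%) and 3 fell (12%). The canonical ligand gene Wnt10b was at 8.35, 7.25 and 8.61 against 1.48, 1.91 and 2.02 FPKM (log2 difference -2.16, SE 0.14, adjusted p = 5.72e-05), and Wnt5a, a ligand best known for signalling without beta-catenin, at 3.50, 3.26 and 3.43 against 7.99, 8.44 and 9.13 FPKM (log2 difference 1.10, SE 0.06, adjusted p = 1.76e-05). The WNT inhibitor gene Dkk2 fell from 13.9 ± 1.63 to 6.99 ± 0.0418 FPKM. Of WNT ligands and inhibitors 12 passed the expression filter, 1 of them higher (8.33%) and 3 lower (25%), or 5 lower without wild type 1 and sgNAT10 2.

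In the joint list of insulin-like growth factor binding proteins and stanniocalcins 2 of 9 tested members rose (22.2%) and 2 fell (22.2%), near the shares over all genes, and without wild type 1 and sgNAT10 2 the rises numbered 1. Igfbp4 was at 39.0, 39.6 and 39.1 FPKM in wild type and 119.6, 117 and 119.8 FPKM in sgNAT10 (log2 difference 1.61, SE 0.03, adjusted p = 3.91e-07), whereas Igfbp7 was at 72.7, 82.3 and 77.2 against 31.9, 29.6 and 30.9 FPKM (log2 difference -1.33, SE 0.06, adjusted p = 7.69e-06). The other two calls were on the stanniocalcin genes, with Stc2 going from 13.9 ± 0.824 to 15.9 ± 0.609 FPKM (log2 difference 0.21, SE 0.06, adjusted p = 0.0267) and Stc1 lower. The Stc2 call was lost without sgNAT10 2 (adjusted p = 0.0706), without sgNAT10 3 (adjusted p = 0.075) and without wild type 1 and sgNAT10 2 (adjusted p = 0.0562). Igfbp6, the most abundant of the list, was at 87.0, 89.8 and 91.3 against 85.9, 93.0 and 91.6 FPKM with overlapping groups and no call (log2 difference 0.02, SE 0.03, adjusted p = 0.71). Of complement genes 5 of 22 tested members rose (22.7%) and 0 fell. C3, the central component, went from 24.8 ± 1.45 to 39.6 ± 1.46 FPKM (log2 difference 0.68, SE 0.05, adjusted p = 5.98e-05), and the initiating protease gene C1ra went from 23.7 ± 0.962 to 37.2 ± 1.77 FPKM and C1s1 from 34.2 ± 1.30 to 49.1 ± 1.39 FPKM. That share of rises is near the share over all genes. Among guidance cues 5 of 26 tested members rose (19.2%) and 4 fell (15.4%), against 21.2% and 19.4% over all genes. Sema3a, a repellent of axons and endothelial cells, fell from 47.8 ± 5.97 to 25.8 ± 0.955 FPKM (log2 difference -0.90, SE 0.08, adjusted p = 0.000205), and Sema3b and Efna3 rose from 2.10 ± 0.518 to 5.46 ± 0.403 FPKM and from 3.75 ± 0.115 to 8.15 ± 0.860 FPKM.

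Transcription factors of the AP-1 and C/EBP families had the largest share of rises of any list: 12 of 23 tested members rose (52.2%) and 4 fell (17.4%). Jun was at 26.1, 28.3 and 28.3 FPKM in wild type and 65.8, 69.5 and 67.7 FPKM in sgNAT10 (log2 difference 1.30, SE 0.04, adjusted p = 1.96e-06), while its dimer partner Fos was at 5.41, 7.34 and 8.80 against 0.873, 0.255 and 0.572 FPKM (log2 difference -3.71, SE 0.53, adjusted p = 0.0015). Fosb went from 4.42 ± 0.933 to 1.67 ± 0.144 FPKM and Jund from 94.1 ± 5.58 to 61.5 ± 3.70 FPKM, both lower, and Fosl1, Junb, Maff, Mafg, Mafk, Cebpb and Cebpd were higher. Atf4, the stress-response factor and the most abundant of the list, went from 436 ± 4.65 to 501 ± 8.61 FPKM (log2 difference 0.20, SE 0.03, adjusted p = 0.00394).

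The early growth response gene Egr1, which is induced with Fos by serum and growth factors, was at 7.94, 9.48 and 10.8 FPKM in wild type and 2.05, 2.11 and 3.04 FPKM in sgNAT10 (log2 difference -1.97, SE 0.18, adjusted p = 0.000199). Several Krüppel-like factors rose, with Klf4 at 6.53, 9.14 and 7.81 against 17.9, 18.5 and 19.6 FPKM (log2 difference 1.27, SE 0.11, adjusted p = 0.000173) and Klf2 going from 7.02 ± 0.177 to 13.99 ± 0.822 FPKM (log2 difference 0.999, SE 0.06, adjusted p = 4.85e-05). Of the whole EGR, KLF and SP list 7 of 21 tested members rose (33.3%) and 5 fell (23.8%), and without wild type 1 and sgNAT10 2 the falls numbered 3. Among ETS, NF-kB and T-box factors no call reached 2-fold, and 13 of 31 tested members rose (41.9%) and 5 fell (16.1%). The inhibitor gene Nfkbie went from 5.35 ± 0.689 to 9.58 ± 0.794 FPKM, the non-canonical subunit gene Nfkb2 from 46.6 ± 2.05 to 59.7 ± 2.18 FPKM and Tbx3 from 7.50 ± 0.181 to 13.7 ± 0.758 FPKM, and Ets1 fell from 26.6 ± 0.787 to 16.8 ± 0.734 FPKM (log2 difference -0.61, SE 0.04, adjusted p = 4.36e-05).

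In the list of SOX, forkhead and GATA factors 7 of 31 tested members rose (22.6%) and 8 fell (25.8%). Over all genes the shares were 21.2% and 19.4%. Sox9, a factor of cartilage and progenitor cells, was at 13.6, 15.4 and 13.9 FPKM in wild type and 35.0, 36.0 and 36.7 FPKM in sgNAT10 (log2 difference 1.33, SE 0.04, adjusted p = 3.1e-06). The pluripotency factor gene Sox2 was at 18.8, 18.9 and 18.1 against 7.87, 7.69 and 7.94 FPKM (log2 difference -1.24, SE 0.05, adjusted p = 4.83e-06). Foxc2 rose from 7.46 ± 0.461 to 15.3 ± 0.667 FPKM while Foxc1 fell from 6.13 ± 0.303 to 2.45 ± 0.247 FPKM, and Prrx1, a factor of limb mesenchyme, rose from 17.1 ± 1.16 to 38.4 ± 1.58 FPKM while Prrx2 fell from 26.0 ± 0.621 to 19.4 ± 1.30 FPKM. The mesenchymal list as a whole had 8 of 26 tested members higher (30.8%) and 7 lower (26.9%), and 3 lower without wild type 1 and sgNAT10 2. Among basic helix-loop-helix and ID genes 8 of 34 tested members rose (23.5%) and 10 fell (29.4%). Bhlhe22, a neuronal factor of that family, was at 1.97, 1.69 and 2.05 against 10.2, 10.6 and 11.1 FPKM (log2 difference 2.49, SE 0.09, adjusted p = 4.34e-06). Id2, an inhibitor of that family, was at 10.1, 9.42 and 12.2 against 2.50, 2.12 and 2.89 FPKM (log2 difference -2.06, SE 0.16, adjusted p = 0.000102), whereas its relative Id1 rose from 30.7 ± 2.10 to 46.1 ± 0.918 FPKM. Hif1a, the oxygen-regulated subunit and the most abundant member of that list, fell from 93.4 ± 1.16 to 66.2 ± 3.22 FPKM (log2 difference -0.48, SE 0.04, adjusted p = 0.000189).

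Homeobox genes outside the HOX clusters had 7 of 38 tested members higher (18.4%) and 10 lower (26.3%), or 6 lower without wild type 1 and sgNAT10 2. Over all genes the shares were 21.2% and 19.4%. Rhox5, an X-linked homeobox gene of the reproductive tract, was at 9.31, 10.6 and 9.71 FPKM in wild type and 47.7, 50.3 and 47.7 FPKM in sgNAT10 (log2 difference 2.25, SE 0.08, adjusted p = 3.72e-06). Pknox2, a cofactor of HOX proteins, was at 4.61, 4.14 and 3.96 against 0.675, 0.641 and 0.617 FPKM (log2 difference -2.66, SE 0.12, adjusted p = 9.77e-06), and Hoxd13 at 2.36, 2.41 and 2.46 against 0.184, 0 and 0.0676 FPKM (log2 difference -4.81, SE 1.14, adjusted p = 0.0137). The Hoxd13 call was lost without sgNAT10 3 (adjusted p = 0.0645), and Hoxd13 was listed at 0 in sgNAT10 2. In the HOX clusters 8 of 33 tested members rose (24.2%) and 3 fell (9.09%). Hoxc6 went from 10.7 ± 1.28 to 23.3 ± 0.685 FPKM, Hoxb9 from 3.90 ± 0.236 to 8.17 ± 0.726 FPKM and Hoxb2 from 1.06 ± 0.0960 to 3.52 ± 0.408 FPKM, all higher, and Hoxc10, the most abundant, was at 22.8, 22.6 and 25.1 against 21.3, 22.7 and 21.6 FPKM with no call (log2 difference -0.10, SE 0.06, adjusted p = 0.22). Of nuclear receptors 9 of 32 tested members rose (28.1%) and 10 fell (31.2%). The clock repressor gene Nr1d1 rose from 15.2 ± 0.516 to 28.3 ± 0.830 FPKM (log2 difference 0.92, SE 0.03, adjusted p = 5.03e-06), the retinoic acid receptor gene Rarg from 38.2 ± 2.59 to 53.2 ± 0.715 FPKM and the thyroid hormone receptor gene Thra from 10.5 ± 1.14 to 15.99 ± 0.294 FPKM, while the orphan receptor gene Nr2f1 fell from 7.45 ± 0.205 to 4.84 ± 0.357 FPKM.

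**Figure D3:**
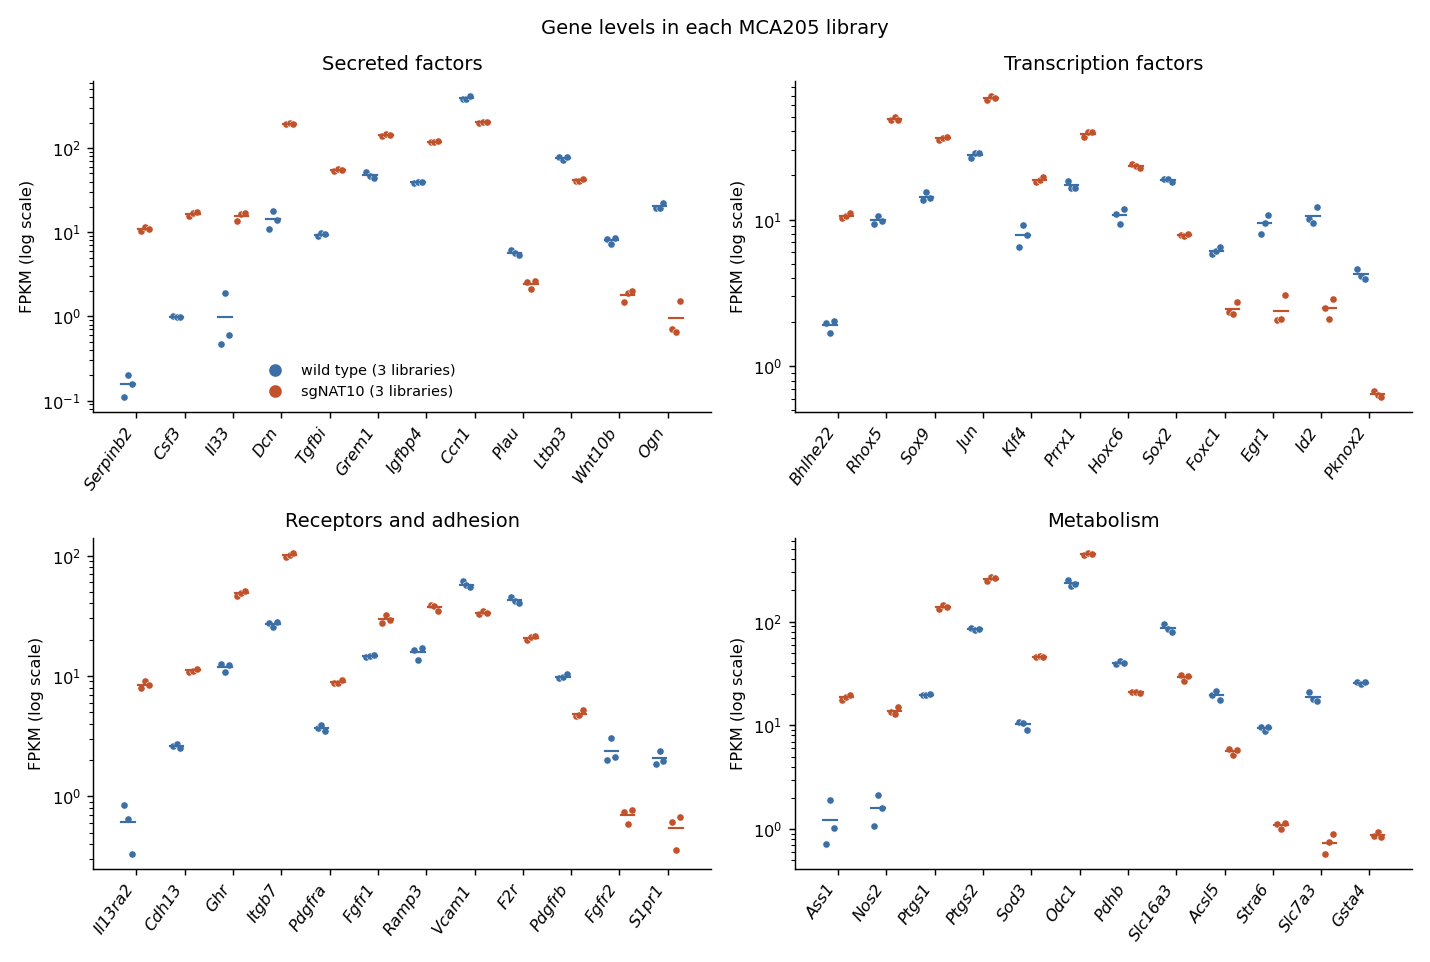
FPKM (log axis) of 48 genes in the 6 MCA205 libraries, 12 in each of 4 panels, with 1 point per library and a short line at the mean of each genotype. The genes were picked among those whose groups do not overlap. Rises and falls occur in each panel, such as Pdgfra above and Pdgfrb below its wild-type points.

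Receptor genes were more often higher than lower in sgNAT10 cells, and cytokine receptors most of all: 22 of 48 tested members rose (45.8%) and 7 fell (14.6%). Il13ra2, a decoy receptor of interleukin 13, was at 0.844, 0.648 and 0.332 FPKM in wild type and 7.97, 9.01 and 8.49 FPKM in sgNAT10 (log2 difference 3.77, SE 0.32, adjusted p = 0.000151). Il13ra1, the signalling receptor of the same cytokine, was at 6.69, 7.26 and 6.48 against 0.354, 0 and 0.541 FPKM (log2 difference -4.53, SE 1.06, adjusted p = 0.0132). The 2 receptors thus stood in opposite order in the genotypes, although the Il13ra1 call was lost without sgNAT10 1 (adjusted p = 0.0503) and that gene was listed at 0 in sgNAT10 2. The growth hormone receptor gene Ghr was at 12.6, 10.9 and 12.4 against 46.4, 49.0 and 50.8 FPKM (log2 difference 2.07, SE 0.04, adjusted p = 4.85e-07). Fas, a death receptor, went from 0.725 ± 0.289 to 2.45 ± 0.316 FPKM (log2 difference 1.71, SE 0.37, adjusted p = 0.00926), and Tnfrsf9, Tnfrsf14, Tnfrsf18, Tnfrsf22, Tnfrsf23 and Tnfrsf26 also rose. The interleukin-1 receptor gene Il1r1 fell from 6.92 ± 0.338 to 4.30 ± 0.273 FPKM (log2 difference -0.70, SE 0.07, adjusted p = 0.000276). Tnfrsf12a, the most abundant receptor of the list, was at 556, 526 and 529.7 against 509, 509 and 491 FPKM and was not called in the main edgeR test (log2 difference -0.08, SE 0.04, adjusted p = 0.212). It was called lower by DESeq2 (adjusted p = 0.04) and by edgeR with a filter of at least 1 CPM in a group (adjusted p = 0.0469).

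Among receptor tyrosine kinases 11 of 37 tested members rose (29.7%) and 6 fell (16.2%). Pdgfra was at 3.73, 3.88 and 3.52 FPKM in wild type and 8.76, 8.76 and 9.24 FPKM in sgNAT10 (log2 difference 1.30, SE 0.05, adjusted p = 5.84e-06), and Pdgfrb, which binds an overlapping set of platelet-derived growth factors, at 9.58, 9.76 and 10.3 against 4.64, 4.78 and 5.20 FPKM (log2 difference -1.02, SE 0.05, adjusted p = 2.09e-05). Fgfr1 was at 14.4, 14.6 and 14.97 against 27.6, 32.2 and 29.4 FPKM (log2 difference 1.05, SE 0.03, adjusted p = 1.11e-06), and Fgfr2 at 2.01, 3.06 and 2.12 against 0.741, 0.595 and 0.773 FPKM (log2 difference -1.57, SE 0.19, adjusted p = 0.000797). In both pairs 1 receptor rose and the other fell. Axl, a receptor of the TAM family and the most abundant kinase here, rose from 199 ± 16.1 to 296 ± 10.6 FPKM (log2 difference 0.58, SE 0.07, adjusted p = 0.000593). Of the receptors for transforming growth factor beta, NOTCH, hedgehog and WNT, 7 of 39 tested members rose (17.9%) and 15 fell (38.5%). The rises included the co-receptor gene Eng, from 8.47 ± 0.538 to 19.1 ± 0.575 FPKM, and Tgfbr1, from 6.63 ± 0.391 to 9.54 ± 0.598 FPKM. Among the falls were Bmpr1a, from 15.3 ± 2.01 to 9.88 ± 0.385 FPKM, the Dickkopf receptor gene Kremen1, from 13.3 ± 0.865 to 6.40 ± 0.255 FPKM, and the hedgehog transducer gene Smo, from 42.4 ± 2.57 to 35.0 ± 0.464 FPKM, with Ptch1, Tgfbr2, Lrp6 and Notch3.

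G protein-coupled receptors and adhesion receptors leaned upward. In the first list 19 of 51 tested members rose (37.3%) and 8 fell (15.7%), and in the second 17 of 49 tested members rose (34.7%) and 7 fell (14.3%). The thrombin receptor gene F2r was at 45.2, 41.9 and 40.2 FPKM in wild type and 19.9, 21.1 and 21.5 FPKM in sgNAT10 (log2 difference -1.02, SE 0.05, adjusted p = 1.69e-05), and S1pr1, which guides lymphocyte egress and vessel growth, fell from 2.07 ± 0.270 to 0.548 ± 0.165 FPKM (log2 difference -1.91, SE 0.27, adjusted p = 0.00149). The accessory protein gene Ramp3, whose product sorts calcitonin-type receptors to the membrane, rose from 15.7 ± 1.96 to 37.0 ± 2.19 FPKM (log2 difference 1.25, SE 0.11, adjusted p = 0.000165). Itgb7, an integrin chain best known from gut-homing lymphocytes, was at 27.4, 25.6 and 28.3 against 97.2, 101 and 105 FPKM (log2 difference 1.88, SE 0.05, adjusted p = 1.23e-06), and Cdh13, an atypical cadherin, at 2.62, 2.74 and 2.54 against 10.8, 11.02 and 11.5 FPKM (log2 difference 2.10, SE 0.06, adjusted p = 1.35e-06). Vcam1 was at 60.998, 56.7 and 54.5 against 32.5, 34.6 and 33.4 FPKM (log2 difference -0.77, SE 0.05, adjusted p = 4.84e-05). The broadly used chain gene Itgb1 fell from 116 ± 6.84 to 87.5 ± 3.60 FPKM and Itgb5 from 32.8 ± 0.744 to 23.7 ± 0.602 FPKM. VE-cadherin's gene Cdh5 was at 0.528, 0.896 and 0.293 against 5.12, 5.97 and 5.37 FPKM (log2 difference 3.40, SE 0.43, adjusted p = 0.000857), and the endothelin receptor gene Ednra at 0.0122, 0.164 and 0.0536 against 2.40, 2.18 and 2.49 FPKM (log2 difference 4.90, SE 0.77, adjusted p = 0.0024). Cdh5 is itself among the 7 endothelial markers and was the only 1 of them to reach 1 FPKM in each sgNAT10 library. Their mean level was 0.867 to 0.899 FPKM there against 0.116 to 0.472 FPKM in wild type. Most of the sgNAT10 mean was Cdh5, so it is no separate measure of endothelial transcript. The part of endothelial transcript in these 2 rises was not tested.

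Over the list of amino acid, creatine, arginine and polyamine enzymes 6 of 42 tested members rose (14.3%) and 9 fell (21.4%), against 21.2% and 19.4% over all genes. Ass1, which makes the precursor of arginine from citrulline, was at 0.715, 1.91 and 1.04 FPKM in wild type and 17.5, 19.0 and 19.6 FPKM in sgNAT10 (log2 difference 3.93, SE 0.33, adjusted p = 0.00014). Nos2, the inducible synthase that turns arginine into nitric oxide, was at 1.06, 2.13 and 1.59 against 13.6, 12.9 and 15.2 FPKM (log2 difference 3.13, SE 0.23, adjusted p = 8.38e-05). Odc1, which takes ornithine into polyamines, was at 249, 222 and 231 against 439, 459 and 448 FPKM (log2 difference 0.95, SE 0.05, adjusted p = 3e-05). All 3 rose. Gatm, the first enzyme of creatine synthesis, was at 20.9, 18.3 and 19.7 against 0.233, 0 and 0.488 FPKM (log2 difference -6.40, SE 0.80, adjusted p = 0.00084), and the arginine transporter gene Slc7a3 at 20.9, 17.96 and 17.3 against 0.577, 0.758 and 0.898 FPKM (log2 difference -4.46, SE 0.16, adjusted p = 4.11e-06). Gatm was listed at 0 in sgNAT10 2, which had the lowest joint mean of hepatocyte and intestinal genes. Its wild-type level was as high in wild type 1 as in the other wild-type libraries. The creatine transporter gene Slc6a8 rose from 33.8 ± 1.04 to 59.7 ± 2.40 FPKM (log2 difference 0.84, SE 0.03, adjusted p = 7.65e-06), and the general arginine carriers Slc7a1 and Slc7a2 were also higher. Large neutral amino acid and cystine carriers fell by small amounts, Slc7a5 from 122 ± 4.22 to 102 ± 1.38 FPKM, Slc3a2 from 204 ± 2.18 to 177 ± 6.06 FPKM and Slc7a11 from 18.8 ± 0.683 to 15.05 ± 0.340 FPKM. Of amino acid transporters 9 of 26 tested members rose (34.6%) and 6 fell (23.1%).

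The citrate cycle list had the largest share of falls among the 35 lists. Of genes of the citrate cycle and pyruvate entry, 3 of 31 tested members rose (9.68%) and 21 fell (67.7%), with no change of 2-fold or more and a median log2 difference of -0.26. Without the pair of libraries low in other tissues' transcripts 20 fell and 3 rose. Pdhb, a subunit of pyruvate dehydrogenase, was at 39.4, 41.6 and 39.7 FPKM in wild type and 20.9, 21.1 and 20.4 FPKM in sgNAT10 (log2 difference -0.94, SE 0.04, adjusted p = 7.55e-06). Malic enzyme Me2 went from 36.1 ± 2.05 to 22.9 ± 1.42 FPKM, the cytosolic Idh1 from 26.5 ± 2.76 to 17.9 ± 1.19 FPKM, and Cs, Ogdh, Sdha, Fh1, Mdh1 and the pyruvate carrier genes Mpc1 and Mpc2 also fell. Mdh2, the most abundant of the list, was at 225, 232 and 221 against 216, 219.8 and 223 FPKM with overlapping groups and no call (log2 difference -0.04, SE 0.03, adjusted p = 0.366).

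In glucose uptake, glycolysis and lactate export 5 of 33 tested members rose (15.2%) and 13 fell (39.4%), with 3 rises left without wild type 1 and sgNAT10 2. The lactate exporter gene Slc16a3 was at 95.6, 85.1 and 79.7 FPKM in wild type and 30.7, 27.1 and 30.1 FPKM in sgNAT10 (log2 difference -1.58, SE 0.05, adjusted p = 2.7e-06), and its relative Slc16a1 went from 48.3 ± 1.89 to 32.1 ± 0.869 FPKM. Tpi1 went from 605 ± 4.09 to 434 ± 11.3 FPKM (log2 difference -0.49, SE 0.04, adjusted p = 8.06e-05) and Ldha, Gpi1 and Pgam1 fell too, while the glucose transporter gene Slc2a1 rose from 39.8 ± 0.727 to 50.6 ± 1.11 FPKM and the enolase gene Eno3 from 43.1 ± 2.19 to 69.9 ± 0.669 FPKM. The carbon-exchange enzymes of the pentose phosphate pathway parted, with the transaldolase gene Taldo1 at 113, 116 and 113 against 201, 196 and 193 FPKM (log2 difference 0.79, SE 0.03, adjusted p = 7.15e-06) and the transketolase gene Tkt at 139.8, 145 and 146 against 88.1, 84.2 and 94.6 FPKM (log2 difference -0.71, SE 0.04, adjusted p = 4.54e-05). In the joint list of pentose phosphate and nucleotide synthesis genes 9 of 47 tested members rose (19.1%) and 20 fell (42.6%). Higher members included the breakdown and salvage enzymes Upp1, from 16.9 ± 2.03 to 44.6 ± 0.535 FPKM, and Xdh, which makes uric acid, from 23.2 ± 1.83 to 48.3 ± 3.87 FPKM.

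Genes of serine, one-carbon and methionine metabolism leaned the other way, and 10 of 28 tested members rose (35.7%) and 6 fell (21.4%). Amt, of the glycine cleavage system, rose from 1.10 ± 0.429 to 2.37 ± 0.116 FPKM (log2 difference 1.24, SE 0.22, adjusted p = 0.0037), and the transsulfuration gene Cth from 51.7 ± 3.97 to 83.2 ± 2.63 FPKM. The mitochondrial folate enzymes parted, Mthfd1l rising from 38.6 ± 2.18 to 53.6 ± 0.514 FPKM and Mthfd2 falling from 155 ± 3.48 to 129.8 ± 3.45 FPKM.

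Fatty acid synthesis and storage had the share of falls next to that of the citrate cycle: 7 of 40 tested members rose (17.5%) and 19 fell (47.5%). The fatty acid chaperone gene Fabp5 was at 50.3, 57.8 and 51.99 FPKM in wild type and 18.1, 16.2 and 17.5 FPKM in sgNAT10 (log2 difference -1.59, SE 0.07, adjusted p = 9.77e-06). Acsl5, an acyl-CoA synthetase, was at 19.5, 21.3 and 17.6 against 5.98, 5.15 and 5.81 FPKM (log2 difference -1.76, SE 0.08, adjusted p = 1.35e-05), and the desaturase gene Scd2, the most abundant of the list, at 317, 311 and 325 against 210.3, 207 and 221 FPKM (log2 difference -0.57, SE 0.04, adjusted p = 0.000102). All 3 fell, and Fasn, Acaca, Fads1, Fads2, Elovl5 and Elovl6 fell with them. The other synthetase gene Acsl6 was at 0, 0.171 and 0.0285 against 2.77, 2.31 and 3.03 FPKM (log2 difference 5.38, SE 1.05, adjusted p = 0.00607). In fatty acid oxidation 7 of 34 tested members rose (20.6%) and 11 fell (32.4%), against 21.2% and 19.4% over all genes. Genes of the carnitine palmitoyltransferase family parted. The liver form Cpt1a rose from 4.21 ± 0.302 to 7.37 ± 0.639 FPKM (log2 difference 0.82, SE 0.08, adjusted p = 0.000222), and the brain form Cpt1c was at 9.72, 9.19 and 9.50 against 0.0387, 0.0620 and 0.283 FPKM (log2 difference -6.13, SE 0.61, adjusted p = 0.000294).

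Both cyclooxygenase genes, which commit arachidonic acid to prostaglandins, rose. Ptgs1, the constitutive cyclooxygenase (chromosome 2 from 36230426 to 36252272 in the mm10 build), was at 19.5, 19.8 and 20.1 FPKM in wild type and 134, 143 and 138 FPKM in sgNAT10, a fitted 7.29-fold difference (log2 difference 2.87, SE 0.03, adjusted p = 1.28e-07). Ptgs2, the inducible cyclooxygenase, was at 87.2, 83.7 and 85.6 against 246, 269.8 and 265 FPKM (log2 difference 1.60, SE 0.04, adjusted p = 1.5e-06). Pla2g7, a phospholipase that inactivates platelet-activating factor, was at 16.3, 14.6 and 16.4 against 59.1, 62.6 and 56.7 FPKM (log2 difference 1.95, SE 0.06, adjusted p = 1.83e-06). The synthase genes Ptges and Ptgis and the phospholipase gene Pla2g4a rose with them. The retinol uptake receptor gene Stra6 was at 9.74, 8.81 and 9.64 against 1.12, 1.02 and 1.14 FPKM (log2 difference -3.13, SE 0.09, adjusted p = 1.72e-06) and the retinoid genes Dhrs3, Rdh10, Rdh11, Crabp2 and Cyp26b1 fell with it, while Crabp1, Cyp26a1 and Dhrs9 rose. Over the joint list 12 of 38 tested members rose (31.6%) and 11 fell (28.9%).

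In the list of antioxidant and detoxification genes 11 of 46 tested members rose (23.9%) and 19 fell (41.3%). Gsta4, the glutathione transferase that clears hydroxynonenal, was at 26.2, 25.1 and 26.4 FPKM in wild type and 0.865, 0.948 and 0.842 FPKM in sgNAT10 (log2 difference -4.86, SE 0.10, adjusted p = 4.71e-07), with every sgNAT10 library below 1 FPKM. The epoxide hydrolase gene Ephx1 went from 7.30 ± 0.955 to 0.420 ± 0.357 FPKM (log2 difference -4.10, SE 0.58, adjusted p = 0.00142) and the reductase gene Akr1b3 from 357 ± 11.2 to 192 ± 2.18 FPKM (log2 difference -0.88, SE 0.04, adjusted p = 7.88e-06). Sod3, the extracellular superoxide dismutase, was at 10.9, 10.7 and 9.14 against 45.8, 46.4 and 45.9 FPKM (log2 difference 2.18, SE 0.07, adjusted p = 2.09e-06). Haem oxygenase, Hmox1, was at 193, 195 and 187 against 328, 335 and 321 FPKM (log2 difference 0.78, SE 0.04, adjusted p = 1.06e-05), and Chac1, which degrades glutathione, went from 92.2 ± 4.96 to 173 ± 3.45 FPKM. All 3 rose. Among iron, haem and carbonic anhydrase genes 14 of 40 tested members rose (35.0%) and 10 fell (25%). The ferrireductase gene Steap3 rose from 4.99 ± 0.133 to 17.3 ± 0.348 FPKM (log2 difference 1.70, SE 0.05, adjusted p = 2.24e-06), and Alas1, which starts haem synthesis, fell from 17.2 ± 1.25 to 8.41 ± 0.368 FPKM (log2 difference -0.90, SE 0.05, adjusted p = 1.89e-05).

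Outside the lists the largest rises included placental and germline genes. The proliferin genes Prl2c2 and Prl2c3, relatives of prolactin made by placenta and by growing fibroblasts, lie at chromosome 13 from 12996125 to 13005383 and at chromosome 13 from 12790816 to 12800079. Prl2c2 was at 24.5, 21.5 and 26.6 FPKM in wild type and 1286, 1397 and 1265 FPKM in sgNAT10 (log2 difference 5.76, SE 0.10, adjusted p = 3.6e-07), and Prl2c3 at 3.33, 3.65 and 4.96 against 259.9, 280.3 and 270.3 FPKM (log2 difference 6.09, SE 0.13, adjusted p = 5.12e-07). The 2 genes are close relatives, so how reads were divided between them rests on the authors' assignment. Dppa2 and Dppa4, neighbouring genes of early embryo and germ cells on chromosome 16 from 48303908 to 48319723 and chromosome 16 from 48283733 to 48294237, were at 0.124, 0.188 and 0.134 against 6.05, 5.92 and 5.32 FPKM (log2 difference 4.97, SE 0.21, adjusted p = 7.91e-06) and at 0.132, 0 and 0.333 against 6.13, 5.85 and 6.61 FPKM (log2 difference 5.24, SE 1.05, adjusted p = 0.00685). Lncenc1, a long noncoding RNA of embryonic stem cells, was at 1.62, 1.80 and 1.497 against 39.9, 42.3 and 36.4 FPKM (log2 difference 4.60, SE 0.08, adjusted p = 3.6e-07). Dppa2, Dppa4 and Lncenc1 were below 2 FPKM in every wild-type library. Havcr2, the inhibitory receptor TIM-3 of T cells and myeloid cells, was at 0.225, 0.135 and 0.290 against 7.50, 8.89 and 7.73 FPKM (log2 difference 5.21, SE 0.28, adjusted p = 2.33e-05). Serpina3m, a secreted protease inhibitor from a cluster of near-identical copies, was at 0, 0.0440 and 0.283 against 8.76, 9.44 and 9.80 FPKM (log2 difference 6.43, SE 0.98, adjusted p = 0.00207), and its share of reads is as uncertain as that of the proliferins. Cpeb1, a factor that controls polyadenylation, rose from 0.327 ± 0.110 to 6.75 ± 0.488 FPKM, the heart peptide gene Nppb from 1.28 ± 0.437 to 44.7 ± 1.53 FPKM, and the transporter gene Slc22a23 from 0.312 ± 0.197 to 7.04 ± 0.242 FPKM. The falls outside the lists among the 15 largest were Arhgef28, a guanine nucleotide exchange factor, from 12.1 ± 1.24 to 0.178 ± 0.130 FPKM, the imprinted genes Phlda2, from 8.87 ± 0.582 to 0.118 ± 0.104 FPKM, and Snrpn, from 7.88 ± 0.932 to 0.196 ± 0.189 FPKM, Tmem121, from 6.22 ± 0.317 to 0.137 ± 0.0830 FPKM, and Uhrf2, whose product binds methylated and hydroxymethylated DNA, from 23.04 ± 0.934 to 0.392 ± 0.331 FPKM. Phlda2 was at 0.162, 0 and 0.193 FPKM and Uhrf2 at 0.537, 0.0130 and 0.625 FPKM in the sgNAT10 libraries, lowest in sgNAT10 2. The part of other tissues' transcripts in these remaining levels was not tested.

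The 30 largest changes were set beside the same genes in TC1 cells, each difference being taken within its own line. Over 20504 genes the sgNAT10 effect differed between the lines for 7247 (35.3%), by an interaction test in edgeR. Of the 30 genes 27 differed, and the lines share no control libraries. Since the 30 were chosen for their MCA205 values, that count is a description. Dppa2 was at 5.05, 5.94 and 4.62 FPKM in wild-type TC1 and 0.0871, 0.101 and 0.182 FPKM in sgNAT10 TC1 cells (log2 difference -5.12), and Lncenc1 at 2.11, 1.23 and 1.44 against 0.154, 0.0903 and 0.0444 FPKM (log2 difference -4.03). In TC1 cells both genes were therefore lower in sgNAT10 libraries. Uhrf2 was at 40.1, 37.1 and 40.1 against 29.9, 33.3 and 33.1 FPKM in TC1 cells (log2 difference -0.31) and Cpeb1 at 16.7, 18.2 and 17.6 against 17.2, 19.8 and 17.8 FPKM (log2 difference 0.13), with overlapping groups for Cpeb1. Cpt1c, lost in MCA205 sgNAT10 cells, was at 12.4, 15.3 and 13.9 against 32.9, 43.8 and 43.7 FPKM in TC1 cells (log2 difference 1.54). Col1a2 was lower in both lines, at 84.5, 114 and 92.2 against 1.08, 1.90 and 1.38 FPKM in TC1 cells, and its difference between the lines was not called (adjusted p = 0.169), nor were those of Csf3 (adjusted p = 0.0636) and Nppb (adjusted p = 0.105). Each of these outcomes changed with single libraries: the Col1a2 difference was called without MCA205 sgNAT10 2 (adjusted p = 0.000174), that of Csf3 without TC1 wild type 2 (adjusted p = 0.00482) or 3 (adjusted p = 0.0422), and that of Nppb without TC1 sgNAT10 1 (adjusted p = 0.0372) or 3 (adjusted p = 0.00878).

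**Figure D4:**
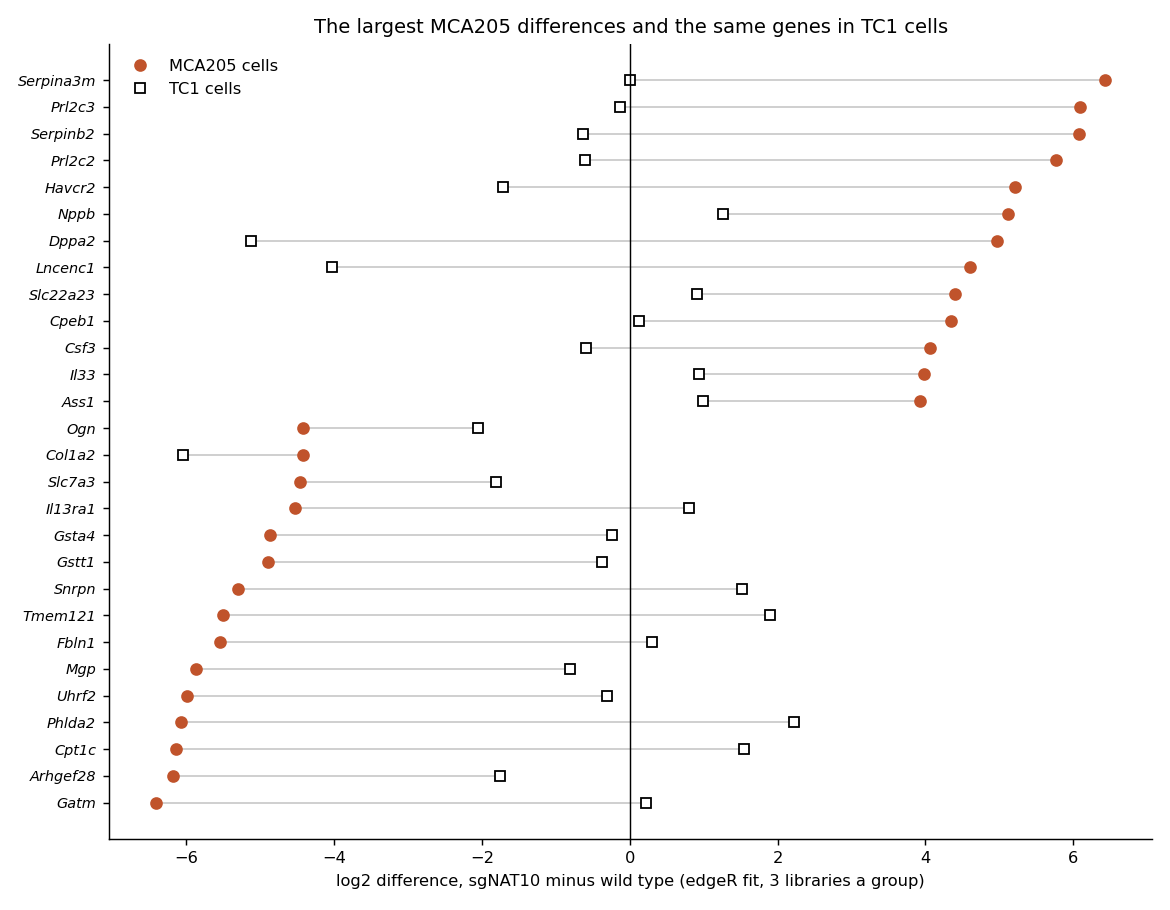
Fitted log2 differences, sgNAT10 minus wild type, of 28 of the 30 largest MCA205 changes (filled circles) and of the same genes in TC1 cells (open squares). Dppa4 and Dynap are left out because their sgNAT10 TC1 libraries were all at 0 FPKM. Dppa2 and Lncenc1 lie on opposite sides of 0 in the 2 lines, and Col1a2 lies below -4 in both.

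Single transcripts could move while their gene did not. A gene's reads are divided among its annotated transcripts, and each transcript row is an estimate that depends on the few bases by which the transcripts differ. The share of a row within its gene was tested for 35863 rows of 9289 genes. With edgeR's test of transcript usage 178 rows of 167 genes changed share (0.496%), and with limma on the log2 ratio of a row to the other rows of its gene 119 did. The second test was chosen after the data were seen, because the first pools the spread of all rows of a gene. Leaving out 1 library gave 249 to 308 rows by the first test, and leaving out wild type 1 and sgNAT10 2 gave 342. Both tests called 68 rows, and the genes described next were chosen among those after their values were seen. Their sequences come from the GENCODE vM21 transcripts of the mm10 build and cover coding bases only. Of the 68 rows 51 were protein coding (75%, against 55.1% of all rows tested for share) and 13 were marked as targets of nonsense-mediated decay (19.1%, against 6.44%).

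Rtkn, which encodes the scaffold protein rhotekin, lost the row that begins upstream. That row, ENSMUST00000065512 on chromosome 6 from 83135812 to 83152579 of the plus strand, was at 6.53, 5.001 and 3.97 FPKM in wild type and 0, 0 and 0 FPKM in sgNAT10 (adjusted p of its share = 1.94e-07 by edgeR and 0.0014 by limma). The row that begins 1298 bases downstream, ENSMUST00000087938, was at 2.46, 3.85 and 3.78 against 6.03, 4.89 and 5.35 FPKM. The start of the coding sequence differs between them. It is shown with the bases held by only 1 row in capitals. They lie between the atg that begins each row's own coding sequence and the first shared bases.
Rtkn upstream row: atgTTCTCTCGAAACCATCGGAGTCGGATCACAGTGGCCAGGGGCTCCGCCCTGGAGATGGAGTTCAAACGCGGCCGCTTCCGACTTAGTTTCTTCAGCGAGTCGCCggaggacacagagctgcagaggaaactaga
Rtkn downstream row: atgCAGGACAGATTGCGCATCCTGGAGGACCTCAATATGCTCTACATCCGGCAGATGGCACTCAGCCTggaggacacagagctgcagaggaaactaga

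For Arl3, a small GTPase of the cilium, rows with different 3′ ends of the coding sequence shifted in share. The row with 6 exons, ENSMUST00000026009 on chromosome 19 from 46531096 to 46573093 of the minus strand, was at 42.1, 48.7 and 43.7 FPKM in wild type and 10.5, 9.63 and 10.8 FPKM in sgNAT10. The row with 7 exons, ENSMUST00000236255, was at 2.18, 0.960 and 2.35 against 14.1, 15.5 and 11.2 FPKM (adjusted p of its share = 0.019 by edgeR and 0.0321 by limma). The row with 7 exons took 4.84, 1.90 and 5.01% of the gene in wild type and 53.3, 55.6 and 44.4% in sgNAT10, where the row with 6 exons took 39.6, 34.6 and 42.9%. The minor row of wild-type cells was thus the larger of the pair in every sgNAT10 library, while the gene total fell from 47.5 ± 2.72 to 26.5 ± 1.30 FPKM (log2 difference -0.71, SE 0.07, adjusted p = 0.000215), so this row moved against its gene. The call on the row itself was lost without sgNAT10 1 (adjusted p = 0.0515), without sgNAT10 2 (adjusted p = 0.0511) and without wild type 1 and sgNAT10 2 (adjusted p = 0.123). The last coding bases of both rows follow, with those held by 1 row only in capitals.
Arl3 row with 6 exons: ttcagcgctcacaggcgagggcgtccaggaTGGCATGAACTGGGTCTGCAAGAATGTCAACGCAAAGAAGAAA
Arl3 row with 7 exons: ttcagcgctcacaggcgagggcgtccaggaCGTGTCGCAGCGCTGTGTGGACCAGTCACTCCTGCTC

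Rows that differ by short coding segments changed share in other genes. In Brd3, which encodes a reader of acetylated histones, the row holding an extra segment of 51 coding bases was at 4.40, 6.14 and 5.98 FPKM in wild type and 0, 0.0175 and 0.0124 FPKM in sgNAT10 (adjusted p of its share = 0.00102 by edgeR and 0.0374 by limma), and the row without it at 4.98, 3.20 and 2.83 against 8.74, 8.83 and 9.60 FPKM. In Slc12a4, the potassium and chloride cotransporter, the row with 6 extra coding bases was at 15.3, 13.9 and 13.4 against 0.474, 1.10 and 0.720 FPKM (adjusted p of its share = 9.91e-07 and 0.00886), and its partner at 17.1, 14.5 and 15.7 against 29.9, 29.5 and 30.5 FPKM. In Ubap1, a subunit of the sorting complex ESCRT, the row that lacks 183 coding bases was at 2.97, 3.25 and 4.25 against 0.2502, 0.261 and 0.301 FPKM (adjusted p of its share = 0.0105 and 0.00599). Kmt5b, a histone H4 lysine methyltransferase gene, went the other way, and the row lacking 69 coding bases was at 0.0188, 0 and 0 against 2.51, 3.28 and 3.64 FPKM (adjusted p of its share = 0.000644 and 0.0321). The edgeR call on that share was lost without wild type 2 (adjusted p = 0.0655), without sgNAT10 1 (adjusted p = 0.0547) and without sgNAT10 3 (adjusted p = 0.105). The longer Kmt5b row changed little, at 3.48, 3.01 and 2.95 against 2.96, 2.49 and 2.74 FPKM. Its share of the gene was 53.7, 42.3 and 43.7% in wild type and 40.8, 32.7 and 31.6% in sgNAT10. Other rows of Kmt5b held the rest. The segments are printed in capitals between 30 shared bases on either side, as held by the longer row. In mm10 that row spans chromosome 2 from 27445600 to 27475673 on the minus strand for Brd3, and chromosome 8 from 105943593 to 105966097 on the minus strand for Slc12a4. It spans chromosome 4 from 41348996 to 41390525 on the plus strand for Ubap1, and chromosome 19 from 3767421 to 3818302 on the plus strand for Kmt5b.
Brd3 segment: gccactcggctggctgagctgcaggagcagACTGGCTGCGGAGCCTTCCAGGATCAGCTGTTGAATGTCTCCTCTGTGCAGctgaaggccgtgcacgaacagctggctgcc
Slc12a4 segment: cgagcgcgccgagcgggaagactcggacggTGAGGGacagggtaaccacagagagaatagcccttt
Ubap1 segment: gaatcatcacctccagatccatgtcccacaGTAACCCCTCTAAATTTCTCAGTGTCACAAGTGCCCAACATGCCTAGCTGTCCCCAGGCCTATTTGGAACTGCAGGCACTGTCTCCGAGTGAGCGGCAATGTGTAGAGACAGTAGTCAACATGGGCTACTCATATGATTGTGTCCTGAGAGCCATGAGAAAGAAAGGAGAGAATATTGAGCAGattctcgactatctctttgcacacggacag
Kmt5b segment: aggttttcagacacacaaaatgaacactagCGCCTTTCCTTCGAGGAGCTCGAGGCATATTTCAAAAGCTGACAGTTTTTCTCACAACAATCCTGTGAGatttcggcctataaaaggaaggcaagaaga

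**Figure D5:**
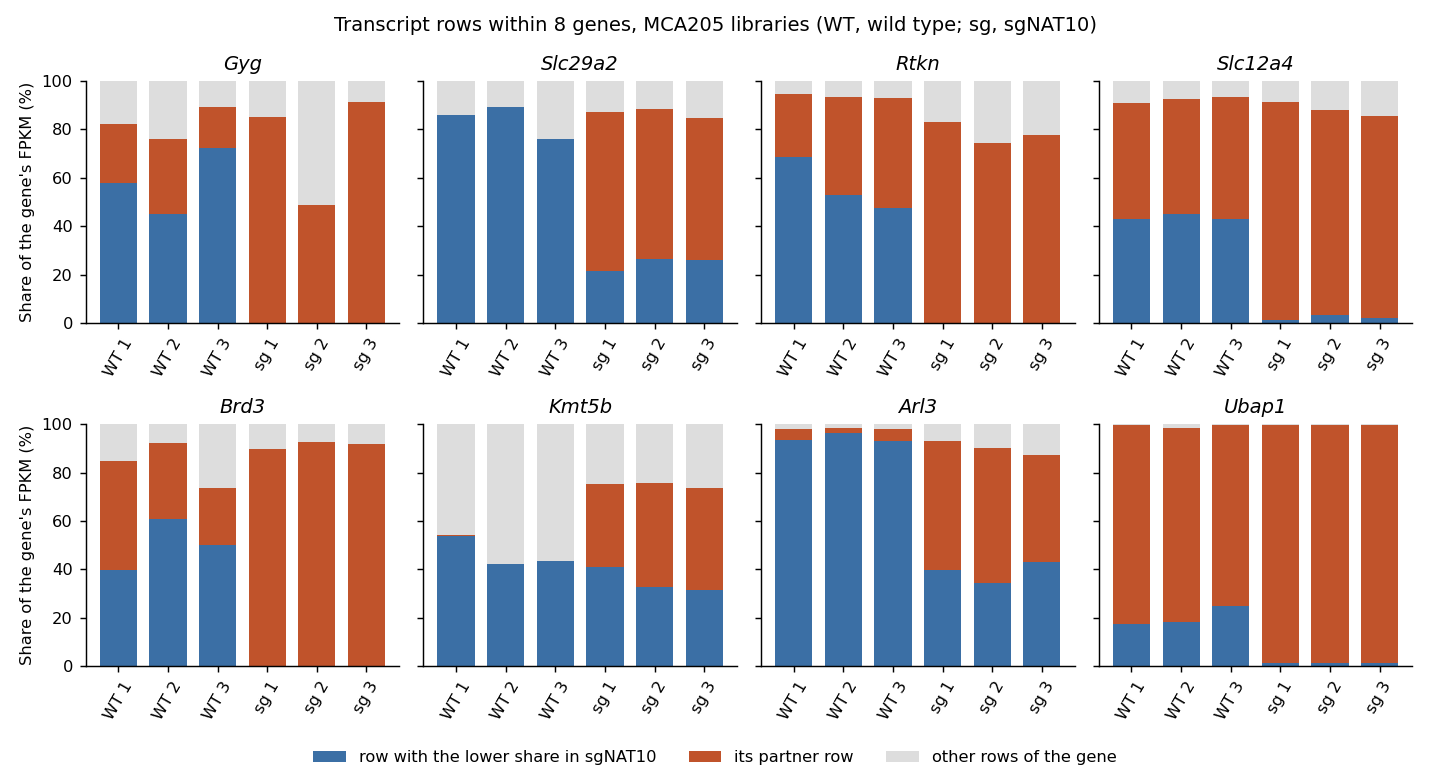
Share of each gene's FPKM (percent, bars from 0) taken by 2 transcript rows and by all other rows in the 6 MCA205 libraries, for 8 genes. The upstream row of Rtkn and the longer row of Brd3 are absent or nearly so in the 3 sgNAT10 libraries.

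Slc29a2, an equilibrative nucleoside transporter, held the row ENSMUST00000025826, on chromosome 19 from 5024071 to 5031969, at shares of 0, 0 and 0% of the gene in wild type and 65.5, 61.8 and 58.5% in sgNAT10 (adjusted p = 5.73e-07 by edgeR and 0.000596 by limma), with no change of the gene total (log2 difference 0.06, SE 0.09, adjusted p = 0.655). In TC1 cells the same row took 73.1, 44.6 and 56.4% in wild type and 0, 0 and 0% in sgNAT10. The 2 lines therefore changed in opposite directions, and the TC1 groups did not overlap. Gyg, glycogenin, did so too, its row with 8 exons going from 57.8, 44.9 and 72.2% to 0, 0 and 0% in MCA205 cells and from 0, 0 and 0.868% to 29.9, 52.9 and 36.7% in TC1 cells. The upstream row of Rtkn took 65.7, 60.5 and 52.1% in wild-type and 37.3, 60.4 and 65.7% in sgNAT10 TC1 cells. The longer Brd3 row took 49.9, 0.113 and 18.5% and 39.4, 71.1 and 18.4% there. For the longer Slc12a4 row these shares were 44.1, 43.1 and 28.2% and 47.7, 9.78 and 2.11%. The shorter Kmt5b row took 48.5, 45.6 and 44.7% and 43.6, 3.74 and 35.1%. The Arl3 row with 6 exons took 91.9, 90.2 and 90.6% and 90.5, 62.5 and 29.0%. Shares of these rows thus varied widely within at least 1 TC1 genotype. Whether such differences come from the transcripts or from how reads were assigned to them was not tested.

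Rows called in the direction opposite to their gene were rare. Of 44405 rows tested 96 rows of 91 genes were called against their gene (0.216%), 49 upward and 47 downward, and 25 of them also changed share. Without wild type 1 and sgNAT10 2 the number was 10, and leaving out any 1 library gave 44 to 65. Rps24, a ribosomal protein gene, fell as a whole (log2 difference -0.26, SE 0.03, adjusted p = 0.000976), while its row annotated with a retained intron was at 19.6, 26.2 and 24.8 FPKM in wild type and 68.9, 57.2 and 70.0 FPKM in sgNAT10 (row log2 difference 1.47, adjusted p = 0.00471). The share of that row rose from 4.73, 6.25 and 5.90% to 24.5, 20.05 and 26.0%. In TC1 cells it went from 8.75, 8.22 and 8.32% to 4.49, 4.74 and 4.85%. Retained introns made up 26 of the 96 rows (27.1%), near their 23.1% of all rows tested. Other types were further from their share. Nonsense-mediated decay rows were 13 (13.5%, against 5.37%), processed transcripts 12 (12.5%, against 6.98%) and protein-coding rows 42 (43.8%, against 55.4%).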

How the data were processed

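RNA sequencing of 6 MCA205 and 6 TC1 libraries was used, 3 of each genotype. The authors deposited FPKM values and estimated counts, as whole numbers, for 87073 transcript rows per line. The submitters' processing notes name mm10, FastQC, Trim Galore, Bowtie2 and featureCounts, but which program split reads among transcripts was not given in the sources used here, and the uncertainty of that split is not in the counts. Estimated counts were summed per gene, and 18101 of 30365 genes passed edgeR's expression filter, with 12264 below it. Genes and rows were tested with edgeR's quasi-likelihood test (edgeR 4.0.16, R 4.3.3, TMM scaling) and Benjamini-Hochberg adjustment over all genes or rows tested. A call is an adjusted p under 0.05. Transcript usage was tested with edgeR's diffSpliceDGE and with limma 3.58.1 on log2 ratios. The scripts were tested on simulated data, where diffSpliceDGE also called many unchanged rows. FPKM values are given per library or as mean ± SD (n = 3). Fold changes and SE come from the edgeR fit, and levels are compared between genes only in FPKM.

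The members and gene lists were chosen with earlier results of these data known. The genes given with values are, for each list, up to 3 rises and 3 falls of largest size among called members whose groups do not overlap and whose higher mean is at least 2 FPKM, plus the most abundant member. To these were added the 15 largest rises and 15 largest falls at 5 FPKM or more, outside the interferon, G2/M, cholesterol and marker lists, with unnamed models and pseudogenes left out. Called members named without values, and transcript rows named outside this rule, were chosen after their values were seen. Some genes that the rule takes are not reported here. Replicates of a genotype differed by more than sampling noise. The alternatives were RLE and library-size scaling, other filters, DESeq2 1.42.0, limma on log2(FPKM + 1) and log2(FPKM + 0.1), a liver and intestine covariate, the replicate number as a block, and leaving out each library. The tumour libraries were not used.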

Additional observations from a re-analysis of the deposited data

Results flagged for a closer look

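For 27 of the 30 genes with the largest MCA205 changes, the sgNAT10 effect differed between MCA205 and TC1 cells in edgeR's interaction test, with adjusted p values from 6.52e-08 to 0.0159. Values are the MCA205 log2 difference minus that of TC1. Among genes of placenta, germ cells and early embryo it was 6.22 for Prl2c3, 6.37 for Prl2c2, 10.10 for Dppa2 and 8.64 for Lncenc1. It was 14.57 for Dppa4 and 13.61 for Dynap, whose sgNAT10 TC1 libraries were all at 0, so these fitted values depend on the prior count and are no bound. For secreted factors it was 6.71 for Serpinb2, 6.41 for Serpina3m and 3.05 for Il33. It was 6.92 for Havcr2, 3.50 for Slc22a23, 4.22 for Cpeb1 and 2.95 for Ass1. Matrix genes had -5.00 for Mgp, -5.82 for Fbln1 and -2.34 for Ogn. Among metabolic genes it was -6.56 for Gatm, -7.67 for Cpt1c, -4.49 for Gstt1, -4.61 for Gsta4 and -2.64 for Slc7a3. It was -5.33 for Il13ra1, -4.39 for Arhgef28, -8.28 for Phlda2, -5.66 for Uhrf2, -7.38 for Tmem121 and -6.79 for Snrpn. Phlda2 was at 2.59, 0.804 and 1.59 FPKM in wild-type TC1 cells and 8.39, 7.09 and 6.56 FPKM in sgNAT10 TC1 cells, higher where MCA205 cells were lower. Gatm was at 2.32, 1.61 and 0.715 against 1.65, 1.55 and 2.04 FPKM in TC1 cells, and Fbln1 at 10.7, 11.4 and 11.1 against 12.9, 14.8 and 13.8 FPKM. The genes were picked for their size in MCA205 cells, so these differences are a description.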

How the results depend on the processing

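Under 16 alternatives 3043 to 4551 genes were higher and 2646 to 4435 lower, all within 1.5 times the reported counts. Genes at least 2-fold higher numbered 733 with limma on log2(FPKM + 0.1) and 526 on log2(FPKM + 1), and genes at least 2-fold lower 356 and 223. Both alternatives shrink the fold changes of low genes by construction. Their filter was also stricter, with 12821 genes tested against 18101 in the main test. Which of these lowered the counts was not tested. The labels do not say if equal replicate numbers mark a shared culture or day. Deviations of same-numbered libraries from their group means correlated at -0.514, -0.564 and 0.267. With 3 libraries a group and transcripts of other tissues in some of them, these correlations cannot show whether libraries were paired. With the replicate block 3043 genes were higher, 2646 lower and 391 at least 2-fold lower, 117 rows changed share and 3 rows were called against their gene. Rows with changed share numbered 1432 with limma-voom, 342 without wild type 1 and sgNAT10 2, and 249 to 308 on leaving out 1 library. Rows against their gene numbered 170 with a filter of 1 CPM, 10 without that pair of libraries, and 44 to 65 on leaving out 1 library. The cause was not tested. Of 244 named genes 226 kept their call and direction throughout, 17 lost the call in at least 1 alternative, and Tnfrsf12a gained it. None of the values reversed. Total counts were 52430163 or more per library, and genes below the expression filter were not tested.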

Other observations

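Several called members outside the rule for named genes, picked after their values were seen, had large changes at appreciable levels. Lif, a cytokine of the interleukin-6 family that sustains embryonic stem cells, was at 9.13, 10.5 and 9.17 FPKM in wild type and 34.8, 35.9 and 34.6 FPKM in sgNAT10 cells (log2 difference 1.92, SE 0.03, adjusted p = 3.6e-07). Il34, a second ligand of the colony-stimulating factor receptor, was at 6.00, 6.66 and 6.59 against 22.7, 20.6 and 21.7 FPKM (log2 difference 1.78, SE 0.06, adjusted p = 2.62e-06), and Kitl, the ligand of KIT, at 3.54, 3.87 and 2.98 against 12.8, 13.9 and 12.8 FPKM (log2 difference 1.95, SE 0.09, adjusted p = 9.61e-06). In all 3 the sgNAT10 libraries lay far above the wild-type libraries. The matrix protein gene Ecm1 was at 21.3, 25.4 and 23.4 against 88.4, 94.2 and 92.9 FPKM (log2 difference 1.94, SE 0.05, adjusted p = 1.06e-06), and the decoy receptor genes Tnfrsf22 and Tnfrsf23, which lie in 1 cluster, at 13.0, 12.1 and 11.1 against 36.4, 38.3 and 34.4 FPKM and at 15.4, 15.4 and 13.8 against 42.4, 44.6 and 43.6 FPKM. Both differed by about the same amount, with log2 differences of 1.54 and 1.53.

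At levels near or below 1 FPKM, the interleukin-7 gene Il7 was listed at 0, 0 and 0.0648 FPKM in wild type and 1.16, 1.12 and 0.963 FPKM in sgNAT10 cells, and its receptor gene Il7r at 0, 0.0116 and 0 against 0.374, 0.142 and 0.384 FPKM. Both were called higher (adjusted p = 0.0196 and 0.00465), and their fitted fold changes depend on the prior count because wild-type libraries were at or near 0. The guidance receptor genes Plxna4, at 0, 0.0243 and 0.0106 against 0.610, 0.638 and 0.592 FPKM, and Unc5c, at 0.0849, 0.0808 and 0.0442 against 0.798, 0.852 and 0.810 FPKM, followed the same pattern. Among falls at such levels Gdf15, a stress-induced cytokine, was at 0.862, 1.15 and 1.16 against 0.129, 0.166 and 0.202 FPKM (log2 difference -2.64, SE 0.32, adjusted p = 0.000746), and the calcium-regulating hormone gene Stc1 at 0.753, 0.901 and 0.785 against 0.0594, 0 and 0.0377 FPKM (log2 difference -4.66, SE 1.07, adjusted p = 0.0122).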
